A study of Homo sapiens with 4 samples.

Results

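BIM (gene symbol BCL2L11) and 9 other genes of the BCL2 family were examined in U251-MG, an established human glioblastoma cell line. The 10 genes were taken by name from a table of 61806 counted genes, and all 10 were found: BCL2, BCL2L1 and MCL1, which guard against cell death, BAX and BAK1, which carry it out, and BCL2L11, BBC3, PMAIP1, BID and BAD, which start it. All passed the low-count filter. The study compared 2 libraries of total RNA from cells infected with a lentivirus that carried the COL8A1 cDNA with 2 libraries from cells infected with a negative control lentivirus (NC). The backbone of both viruses was pCDH-CMV-MCS-EF1-puro, in which the CMV promoter drives the insert, and the line is labelled WT in both groups. The cells are 1 line grown in medium with serum, and no label says whether replicate libraries stem from separate cultures, so a p-value here reflects the spread of these libraries alone, which may be technical. Where 4 values of a gene are given in a row, they belong to replicates 1 and 2 of NC and then replicates 1 and 2 of COL8A1.

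Proteins of the BCL2 family decide whether the outer membrane of the mitochondrion is breached. BAX and BAK form the pores through which cytochrome c leaves the organelle, BCL2, BCL-XL (gene BCL2L1) and MCL1 hold them and their activators in check, and the BH3-only proteins BIM, PUMA (BBC3), NOXA (PMAIP1), BID and BAD relay death signals by inserting a short helix, the BH3 domain, into a groove of the guardians or of BAX and BAK. BIM is known for death after loss of growth factors or matrix contact, NOXA for its preference for MCL1, and BAD for its binding to BCL2 and BCL-XL. Glioblastoma cells commonly rely on BCL-XL and MCL1.

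The BH3 core is a short segment that all 10 proteins carry in varied form, and it is shown here as coding DNA so that the members can be compared. The core was found by a search of translated coding sequences of GENCODE release 29 (human build hg38) for leucine, 3 residues other than proline, then glycine, alanine or serine, then aspartate, then aspartate, glutamate, glycine, lysine or serine. Capitals mark the codon of the leucine and the pair of codons that ends with aspartate, and each line gives 39 bases of the transcript with the longest protein that holds the core.
BCL2: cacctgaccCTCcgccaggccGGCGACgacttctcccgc
BCL2L1: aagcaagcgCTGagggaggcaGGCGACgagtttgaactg
MCL1: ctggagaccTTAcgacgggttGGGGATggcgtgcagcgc
BAX: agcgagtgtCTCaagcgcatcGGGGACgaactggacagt
BAK1: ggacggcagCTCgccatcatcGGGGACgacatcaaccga
BCL2L11: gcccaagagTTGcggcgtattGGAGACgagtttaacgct
BBC3: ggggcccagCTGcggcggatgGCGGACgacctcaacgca
PMAIP1: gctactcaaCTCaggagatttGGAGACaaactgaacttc
BID: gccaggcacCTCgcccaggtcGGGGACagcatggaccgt
BAD: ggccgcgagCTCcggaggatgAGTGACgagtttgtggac
In the leading codon of the capital pair BBC3 encodes alanine and BAD serine, where the other 8 genes encode glycine. Each protein held the pattern in 1 place, which began at residue 152 of the 198 residues of the longest BIM protein and at residue 29 of the 54 residues of NOXA. Of the 14 complete coding transcripts annotated for BCL2L11, 7 carried the core. The counts are sums over a whole gene, so they do not tell transcripts with the core from those without it.

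The libraries held 27923796 to 33576228 counts, and 17030 genes were tested. COL8A1 itself had 77, 82, 4290 and 2259 counts, in the direction of the labels (log2 fold change 5.45, edgeR adjusted p = 0.0681, DESeq2 adjusted p = 6.25e-72). The edgeR threshold was thus missed by a gene whose COL8A1 mean was 43.8 times its NC mean. These counts cannot separate vector from endogenous transcripts. Of 9 genes typical of glioblastoma lines (VIM, NES, CD44, GFAP, S100B, SOX2, SOX9, EGFR and SLC1A3), 8 had a level of at least 1 CPM (counts scaled to library size) in every library, GFAP being the exception, and their sum was 4269 to 4752 CPM in NC and 4495 to 5139 CPM in COL8A1 libraries. The astrocyte genes GFAP and SLC1A3 had the largest fold of the 9, and both COL8A1 libraries were above either NC library in each. The same held for NES and SOX9, and for 18.9% of all genes tested, while the groups overlapped in the rest of the 9. The filament gene GFAP had counts of 21, 19, 65 and 51 (log2 fold change 1.63, edgeR adjusted p = 0.580, DESeq2 adjusted p = 0.176). The glutamate transporter gene SLC1A3 was at 27.2, 27.2, 52.7 and 59.2 CPM (log2 fold change 1.04, edgeR adjusted p = 0.165, DESeq2 adjusted p = 2.52e-10). Both were named after their values were seen. CD3E and AIF1 of the 6 leukocyte genes had 0 counts in every library, and the summed level of these 6 was 5.12 to 6.05 CPM in NC and 3.96 to 4.68 CPM in COL8A1 libraries. The endothelial genes summed to 71.5 to 71.9 CPM in NC and 67.8 to 85.7 CPM in COL8A1 libraries, nearly all of it CDH5, and the neuronal genes to 34.1 to 35.3 and 29.3 to 32.3 CPM. The epithelial genes, of which EPCAM had at most 4 counts, summed to 379.6 to 465.9 and 419.7 to 495.6 CPM, mostly KRT8 and KRT18. Whether such differences had a part in the results below was not tested. In RNA from whole cultures, fewer cells that express a gene and less RNA of it per cell cannot be told apart.

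The question for these genes was how they stood between the vectors and whether the balance of death and survival genes differed. BIM was the member with the largest difference, and it was higher in both COL8A1 libraries than in either NC library. The 3 guardians had lower mean levels in COL8A1 cells, while the COL8A1 mean of BAX, BAK1, PUMA, NOXA and BID was 0.961 to 1.06 of the NC mean, and that of BAD 1.19. None of the 10 differences passed the edgeR quasi-likelihood test with Benjamini-Hochberg adjustment over all genes, which called 2 of 17030 genes (0.0117%), ZNF664 and RAB31, both lower in COL8A1 cells and named here after their values were seen. DESeq2 called 0 of the 10 as well, against 1.06% of all genes tested. At an unadjusted edgeR p under 0.05 there was 1 member, BIM, against 6.07% of all genes (3.44% higher and 2.63% lower). The groups did not overlap in 3 members, BIM and BAD (higher) and BCL2 (lower), against 37.5% of all genes tested, so this share is no larger than that of genes at large. The median log2 fold change of the 10 was −0.0017, and that of all genes tested 0.0011.

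**Figure D1:**
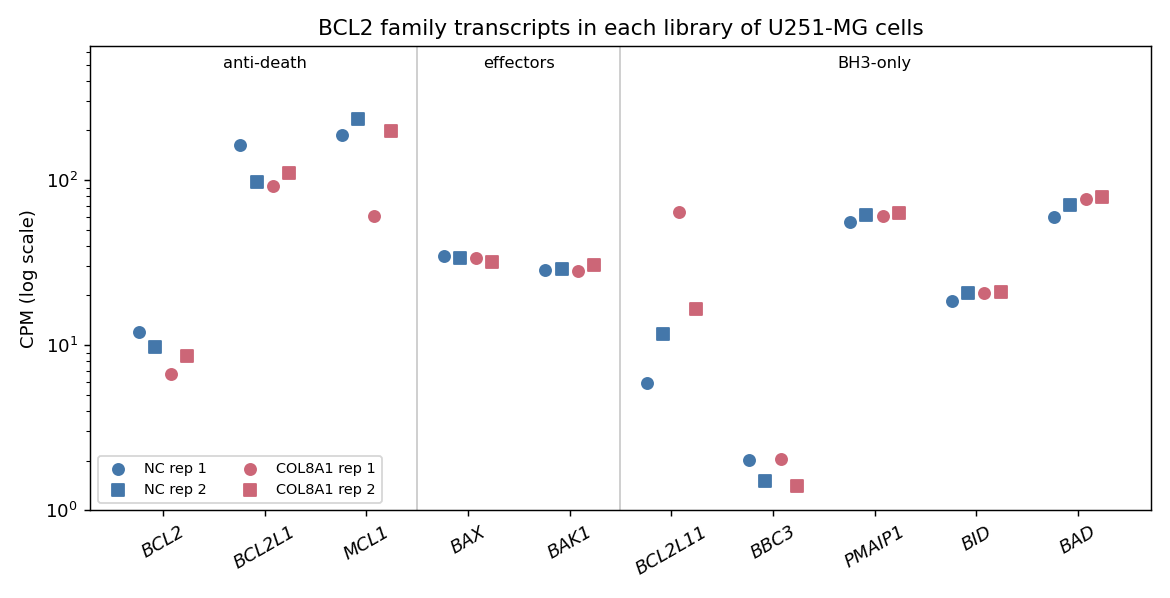
Level of each BCL2 family gene in CPM (log axis) in the 4 libraries, circles for replicate 1 and squares for replicate 2, blue for NC and red for COL8A1, in the order of the roles. BCL2L11 at 63.7 CPM and MCL1 at 61.0 CPM in COL8A1 replicate 1 stand away from the other 3 libraries, and the points of BAX and BAK1 lie close together.

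BIM (BCL2L11, ENSG00000153094; chromosome 2, 111119378 to 111168447, plus strand) has 6658 bases of annotated exon. Its counts were 182, 394, 2027 and 461, or 5.93, 11.7, 63.7 and 16.6 CPM. COL8A1 replicate 1 was far above the rest, COL8A1 replicate 2 was next, and the NC libraries were themselves 1.97-fold apart. Set against the NC mean of 8.80 ± 4.07 CPM (SD, n = 2), COL8A1 replicate 1 was at 7.24 times and COL8A1 replicate 2 at 1.88 times that level. The log2 fold change was 2.19 (SE 0.73, 95% interval 0.26 to 4.11, edgeR unadjusted p = 0.0333, adjusted p = 0.784), the 722nd smallest p of the 17030. In DESeq2 the adjusted p was 0.620.

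COL8A1 replicate 1 carried most of the BIM difference. Without this library the log2 fold change was 0.91 (edgeR adjusted p = 0.824), and without COL8A1 replicate 2 it was 2.85 (adjusted p = 0.410). Leaving out NC replicate 1 or 2 gave 1.78 (adjusted p = 0.998) and 2.76 (adjusted p = 0.877). The 2 COL8A1 libraries were 3.84-fold apart in BIM, and 2.64% of all genes tested had as large a gap between these libraries on the log2 scale. For the gap between the NC libraries the share was 8.95%.

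A long noncoding gene on the opposite strand, MIR4435-2HG, overlaps 727 bases of the annotated BIM exons. Its own counts were 1799, 1623, 1644 and 1912, with COL8A1 replicate 1 inside the range of the other libraries. How the counting treated strand is not stated in the labels, so reads of the shared bases cannot be assigned to a strand. Summed over both genes the counts were 1981, 2017, 3671 and 2373, which still put COL8A1 replicate 1 highest, with a log2 fold change of 0.69, a sum added after the values were seen (edgeR unadjusted p = 0.00997, adjusted p = 0.643). Most of the sum in the NC libraries came from MIR4435-2HG, so these p-values are those of the pooled counts and not of BIM.

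The promoter of BIM is shown because BIM is the member that differed most and is a known target of FOXO transcription factors. RefSeq promoters (GRCh38.p14) matched 9 of the 10 members by symbol, all but MCL1. The 250 bases before the RefSeq start of BCL2L11, chr2:111120664-111120913 on the plus strand, are given with matches to the motifs searched in capitals.
BCL2L11: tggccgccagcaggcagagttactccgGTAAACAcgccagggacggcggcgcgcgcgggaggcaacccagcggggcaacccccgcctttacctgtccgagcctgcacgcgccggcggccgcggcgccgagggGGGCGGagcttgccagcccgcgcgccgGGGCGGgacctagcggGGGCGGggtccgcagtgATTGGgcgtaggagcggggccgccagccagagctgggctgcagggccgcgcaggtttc
The motifs, each searched on both strands, were FOXO (GTAAACA), the GC box (GGGCGG), NF-Y (CCAAT), the E-box (CACGTG), AP-1 (TGANTCA), CRE (TGACGTNA), STAT (TTCNNNGAA) and E2F (TTCCCGCC). The window held 1 FOXO match that began 223 bases before the start, 3 GC boxes and 1 NF-Y match, read here as its reverse complement, and none of these overlapped another. Of all 35116 RefSeq promoter windows of this length, 2.98% held the FOXO letters, 42.6% a GC box and 32% the NF-Y letters. Among the 9 members, BCL2L11 was the only one with the FOXO letters, 6 held a GC box and 5 the NF-Y letters. A member was counted if any of its windows matched, and some had several, whereas the shares of all promoters are per window. These are matches of letters in a window and say nothing about which factors bound there.

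FOXO3, which had more counts than FOXO1 or FOXO4, averaged 93.3 CPM in NC and 99.3 CPM with COL8A1 (edgeR adjusted p = 0.860, log2 fold change 0.090, SE 0.068). The glucocorticoid receptor gene NR3C1, whose product can induce BIM in lymphoid cells, averaged 115.5 and 102.5 CPM (edgeR adjusted p = 0.835, log2 fold change −0.17, SE 0.086). These had the 2 smallest p-values among 14 genes known to control or hold BIM, such as FOXO factors, the ERK kinases that mark BIM for removal and the dynein light chain DYNLL1 that tethers it. Of the 14, 13 were tested, with 8 higher and 5 lower means and a median log2 fold change of 0.07, and 0 had an unadjusted edgeR p under 0.05.

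The 5 genes whose levels followed those of BIM most closely over the 4 libraries were found by the Euclidean distance between centred log2 CPM values, among 11279 genes with a mean of at least 5 CPM. They were ENSG00000187951, which has no symbol in the table (distance 0.616), JPT2 (0.954), the pseudogene TEKT4P2 (1.18), TCF7 (1.20) and ZNF548 (1.28). The counts of JPT2 were 780, 1364, 3783 and 1023, and those of ZNF548 were 92, 94, 393 and 71. In each of the 5, COL8A1 replicate 1 was the highest library. This follows from how the 5 were chosen, by nearness to BIM, which was itself highest in that library.

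MCL1 (ENSG00000143384; chromosome 1, 150574551 to 150579738, minus strand) encodes a short-lived protein that binds BIM, NOXA and BAK. Of the guardian members MCL1, BCL2 and BCL2L1, it had the widest spread. Its counts were 5725, 7867, 1941 and 5503, or 186.5, 233.2, 61.0 and 198.0 CPM. COL8A1 replicate 1 was at 0.291 of the NC mean, whereas COL8A1 replicate 2 lay between the NC libraries. The log2 fold change was −0.70 (SE 0.56, 95% interval −2.16 to 0.77, edgeR adjusted p = 0.865). Without COL8A1 replicate 1 it was −0.084 (edgeR adjusted p = 0.928), and without COL8A1 replicate 2 it was −1.79 (adjusted p = 0.236). Of all genes tested, 3.51% had as large a gap between the COL8A1 libraries.

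The same library was thus the highest of the 4 in BIM and the lowest in MCL1. It was also the higher of the COL8A1 libraries in COL8A1 itself, at 134.9 against 81.3 CPM. In a pair of libraries 1 must be the higher, so this match shows no relation of COL8A1 level to BIM or MCL1. Such a relation was not tested. A library that stood more than 2-fold from each of the other 3 was found in 286 of 11277 tested genes with a mean of at least 5 CPM (2.54%). COL8A1 replicate 1 was that library in 67 genes, and the other 3 libraries in 62 to 81 genes each. Of the 9 members above this level 2 belonged to them, BIM and MCL1. The rule was added after the values were seen, so 2 of 9 cannot be read as an excess over 2.54%.

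BCL2 (ENSG00000171791; chromosome 18, 63123346 to 63320128, minus strand), the founding guardian of the family, had counts of 371, 329, 214 and 240. As levels these were 12.1, 9.75, 6.73 and 8.63 CPM, so that the groups did not overlap. The log2 fold change was −0.51 (SE 0.21, 95% interval −1.07 to 0.050, edgeR unadjusted p = 0.0659, adjusted p = 0.817). It stayed between −0.70 and −0.34 whichever library was left out.

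BCL2L1 (ENSG00000171552; chromosome 20, 31664452 to 31723989, minus strand), which encodes BCL-XL, had counts of 4975, 3306, 2938 and 3068. Here NC replicate 1, at 162.1 CPM, was above the other 3 libraries, which lay between 92.4 and 110.4 CPM. The log2 fold change was −0.36 (SE 0.26, 95% interval −1.04 to 0.33, edgeR adjusted p = 0.856), and without NC replicate 1 it was 0.047 (adjusted p = 0.998). The antisense gene ABALON, which overlaps BCL2L1 exons, had 144 to 175 counts.

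The pore-forming effectors varied little between the libraries. BAX (ENSG00000087088; chromosome 19, 48954815 to 48961798, plus strand) was at 34.7, 33.5, 33.9 and 31.7 CPM, and BAK1 (ENSG00000030110; chromosome 6, 33572547 to 33580293, minus strand) at 28.7, 29.1, 28.3 and 30.5 CPM. The groups overlapped in both genes. The 95% intervals of the log2 fold changes, −0.31 to 0.20 for BAX and −0.23 to 0.29 for BAK1, left room for differences of about that size only (edgeR adjusted p = 0.941 and 0.977).

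**Figure D2:**
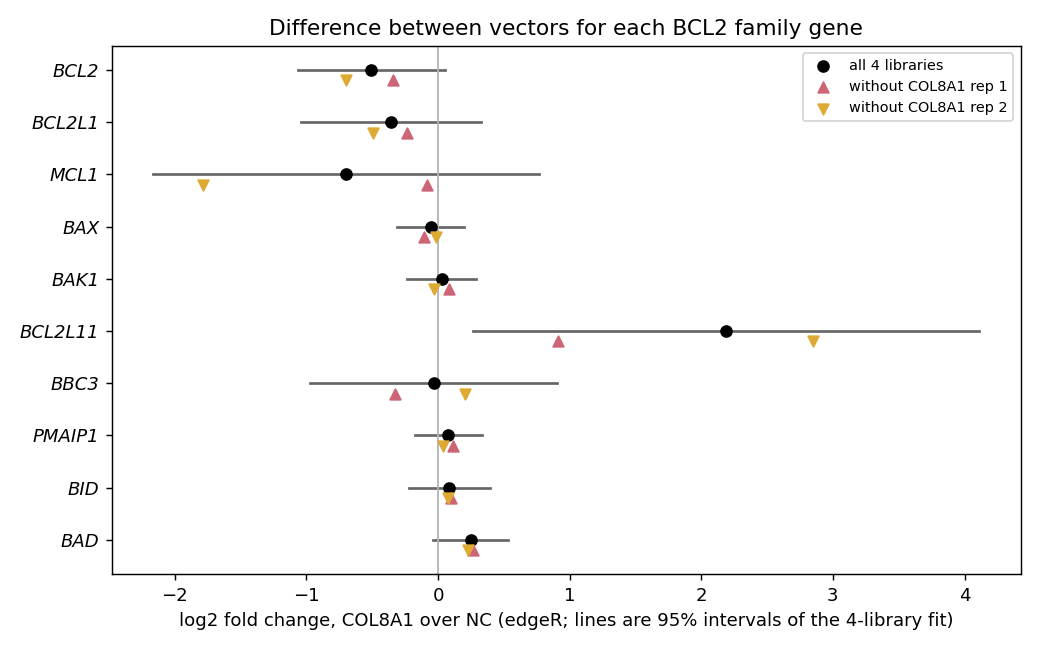
Log2 fold change of each member between COL8A1 and NC cells in edgeR (black points, with 95% intervals as lines), and the same value without COL8A1 replicate 1 (red triangles) or without COL8A1 replicate 2 (yellow triangles). The triangles part most in MCL1 (−0.084 and −1.79) and BCL2L11 (0.91 and 2.85), and the intervals of BAX, BAK1, PMAIP1 and BID are narrow around 0.

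The other BH3-only genes did not show the spread of BIM. BAD (ENSG00000002330; chromosome 11, 64269830 to 64284704, minus strand), which growth factor signalling holds inactive by phosphorylation, was at 60.0, 70.6, 76.7 and 78.5 CPM. Its groups did not overlap, and its log2 fold change was 0.25 (SE 0.11, 95% interval −0.036 to 0.53, edgeR unadjusted p = 0.0740, adjusted p = 0.826). Without NC replicate 1 the value was 0.14, and without NC replicate 2 it was 0.37 (edgeR adjusted p = 0.998 and 0.871). BAD shares 404 exon bases with GPR137 on the opposite strand, which had 956 to 1174 counts.

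NOXA (PMAIP1, ENSG00000141682; chromosome 18, 59899948 to 59904306, plus strand), which stress and p53 induce, was at 55.6, 61.5, 60.2 and 63.5 CPM, and its groups overlapped (edgeR adjusted p = 0.906, log2 fold change 0.079, SE 0.10). BID (ENSG00000015475; chromosome 22, 17734138 to 17774770, minus strand), which caspase-8 cleaves to link death receptors to the mitochondrion, had counts of 571, 701, 661 and 585 (edgeR adjusted p = 0.917, log2 fold change 0.087, SE 0.12), again with overlapping groups. Without NC replicate 1 the log2 fold changes of NOXA and BID were 0.0055 and 0.0079, and without NC replicate 2 they were 0.15 and 0.17. PUMA (BBC3, ENSG00000105327; chromosome 19, 47220822 to 47232766, minus strand), a p53 target, was the lowest of the 10, with 62, 51, 65 and 39 counts. Its log2 fold change of −0.032 (SE 0.36) had a 95% interval from −0.97 to 0.91, which leaves room for a change of nearly 2-fold in either direction.

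Levels were compared between genes as RPKM, which divides CPM by the kilobases of annotated exon of each gene. In NC cells the order was MCL1 at 48.0 ± 7.55 RPKM, BCL2L1 at 39.2 ± 13.7, BAD at 38.2 ± 4.40, PMAIP1 at 26.2 ± 1.90, BAX at 13.2 ± 0.329, BAK1 at 13.0 ± 0.121, BID at 4.43 ± 0.346, BCL2L11 at 1.32 ± 0.611, BCL2 at 0.928 ± 0.140 and BBC3 at 0.555 ± 0.113 RPKM (SD, n = 2). Neighbours in this order overlapped between MCL1, BCL2L1 and BAD, between BAX and BAK1, and between BCL2L11 and BCL2. MCL1 and BCL2L1 thus made up nearly all of the RPKM summed over MCL1, BCL2L1 and BCL2, with BCL2 at 0.925% to 1.35% in the 4 libraries. The guardian gene BCL2L2, described below, was not in this sum. Of the RPKM summed over the BH3-only members BCL2L11, BBC3, PMAIP1, BID and BAD, BIM gave 1.36%, 2.31%, 11.0% and 3.04%. Other genes of the BCL2 family, such as BIK, were not in this sum. In every library, COL8A1 replicate 1 included, most of this BH3-only sum came from BAD and NOXA.

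The balance of the family was shifted most in COL8A1 replicate 1. The 3 guardians summed to 92.6, 83.8, 42.4 and 79.3 RPKM. The 7 pro-death members summed to 92.1, 101.9, 112.6 and 108.1 RPKM. The ratio of pro-death to guardian RPKM was 0.994 and 1.22 in NC and 2.66 and 1.36 in COL8A1 libraries. COL8A1 replicate 2 was thus close to NC replicate 2, and COL8A1 replicate 1 was apart, chiefly by its lower guardian sum.

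On the log2 scale, where each gene counts equally, the balance was defined as the mean log2 CPM of the 7 pro-death members minus that of the 3 guardians. It was −1.94, −1.55, −0.28 and −1.39. Both COL8A1 libraries were above both NC libraries, and the means differed by 0.91 (−1.75 ± 0.28 in NC and −0.83 ± 0.78 in COL8A1, SD, n = 2). The difference was 0.36 without COL8A1 replicate 1, 1.46 without COL8A1 replicate 2 and 0.64 with BIM left out of the pro-death side. No test was made of this value, since its members were chosen, and with 2 libraries against 2 an exact permutation test of any single value cannot give a p below 0.333.

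Ratios between single members restate these levels pair by pair, and those to MCL1 share its value. The RPKM ratio of BIM to MCL1 was 0.0209 and 0.0329 with NC, 0.686 in COL8A1 replicate 1 and 0.0550 in COL8A1 replicate 2. The ratio of NOXA to MCL1 was 0.582 and 0.516 in NC, 1.93 in COL8A1 replicate 1 and 0.627 in COL8A1 replicate 2. BAX stood to BAK1 at 1.04 and 0.987 in NC and at 1.02 and 0.888 in COL8A1 libraries, so the effectors kept nearly equal levels per length in all 4.

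**Figure D3:**
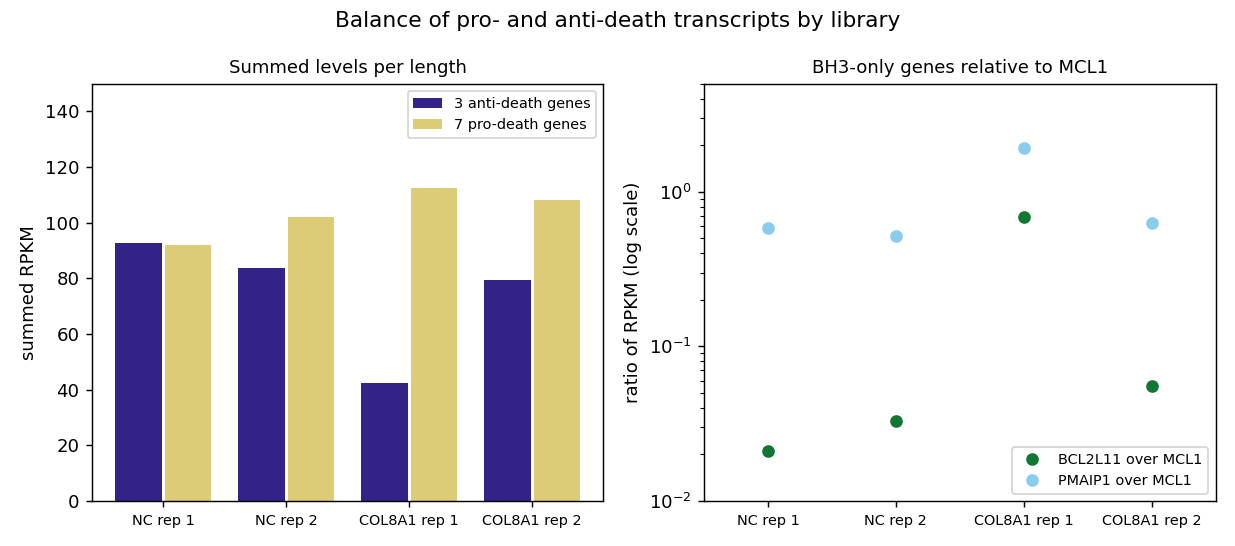
Left, summed RPKM of the 3 anti-death and the 7 pro-death genes in each library (bars from 0). Right, the RPKM ratio of BCL2L11 and of PMAIP1 to MCL1 in each library on a log axis. The anti-death sum is 42.4 RPKM in COL8A1 replicate 1, against 79.3 to 92.6 RPKM in the other libraries, and both ratios are highest there.

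Other genes of the death pathway were read from lists of the same fit, and 0 of their members passed the edgeR or the DESeq2 threshold after adjustment. Of 12 further BCL2 family genes, 8 were tested, 3 with higher and 5 with lower means (median log2 fold change −0.06, 0 at an unadjusted p under 0.05). BCL2L2, which encodes the guardian BCL-W, had counts of 224, 1163, 367 and 221, so NC replicate 2 stood apart (edgeR adjusted p = 0.852, log2 fold change −1.10, SE 0.74). It shares exons with a readthrough gene, between which reads may be split. BNIP3, a mitophagy receptor, averaged 94.9 CPM in NC and 82.4 CPM with COL8A1 (edgeR adjusted p = 0.860, log2 fold change −0.20, SE 0.16). BCL2L10 had 0 counts in all 4 libraries, which allows a level of up to 0.0889 to 0.108 CPM in each library for counting error only.

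Among 9 genes for cytochrome c, its partners and the mitochondrial porins, the smallest p was that of APAF1, the scaffold of the apoptosome. Its counts were 1027, 1120, 1370 and 1114, and the means were 33.3 CPM in NC and 41.6 CPM with COL8A1, with a log2 fold change of 0.32 (SE 0.10, edgeR unadjusted p = 0.0237, adjusted p = 0.742, against 3.44% of all genes at an unadjusted p under 0.05 and higher). All 9 were tested, 4 with higher and 5 with lower means, and the median log2 fold change was −0.04. Among the 7 caspase genes 4 had higher and 3 lower means (median 0.04). CASP10 was under 1 CPM in every library, with counts of 24, 14, 6 and 4 (log2 fold change −1.81, SE 0.66, edgeR unadjusted p = 0.0448, adjusted p = 0.804), and CASP8, the caspase of death receptors, averaged 23.7 and 29.4 CPM (edgeR adjusted p = 0.820, log2 fold change 0.31, SE 0.13).

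The inhibitors of apoptosis (IAPs), which restrain caspases or ubiquitinate their activators, had lower means in COL8A1 cells in 6 of the 6 genes tested. Of all 17030 genes tested, 8475 were lower. The median log2 fold change of the 6 was −0.59, against 0.0011 for all genes tested, and that of BIRC6 was only −0.0069. BIRC3 averaged 18.9 CPM in NC and 13.0 CPM with COL8A1, from counts of 572, 648, 367 and 400 (log2 fold change −0.55, SE 0.15, edgeR unadjusted p = 0.0188, adjusted p = 0.703), and was the 1 of the 6 at an unadjusted p under 0.05, against 2.63% of all genes in this direction. The groups did not overlap in 3 of the 6, against 18.6% of all genes tested in this direction. Without COL8A1 replicate 1 all 6 means were still lower, with a median of −0.34. Without COL8A1 replicate 2, 5 of 6 were lower with a median of −0.92. Without NC replicate 1 or 2, 4 and 5 of 6 were lower, with medians of −0.56 and −0.63. XIAP, which was picked out with its values known, had counts of 4340, 716, 960 and 507, so that its log2 fold change of −1.75 (SE 0.91, edgeR adjusted p = 0.835) came with a 6.66-fold gap between the NC libraries. BIRC2, picked out in the same way, had counts of 2914, 2834, 1306 and 2053 (edgeR adjusted p = 0.835, log2 fold change −0.64, SE 0.29).

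Genes of death receptors, their ligands and their signalling partners had 4 higher and 4 lower means among the 8 of 12 tested (median 0.02). TNFRSF1A, the main receptor of TNF, averaged 125.6 CPM in NC and 99.8 CPM with COL8A1 (log2 fold change −0.33, SE 0.11, edgeR unadjusted p = 0.0316, adjusted p = 0.776). Of the TRAIL receptor genes, singled out with their values known, TNFRSF10A had 0 counts in every library and TNFRSF10B had 2742 to 3084. Among 8 genes of MCL1 turnover, ubiquitin ligases, deubiquitinases and GSK3 kinases, 4 had higher and 4 lower means, with a median of −0.02. The smallest p-values were those of GSK3A, a kinase that marks MCL1 for removal (edgeR adjusted p = 0.860, log2 fold change −0.14), and CUL5, a ligase scaffold (adjusted p = 0.866, log2 fold change −0.091). 

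For the p53 axis, which controls PUMA, NOXA and BAX, 5 of the 8 genes tested of 10 had higher and 3 lower means, with a median log2 fold change of 0.07. MDM2, the ligase that restrains p53, averaged 137.4 CPM in NC and 157.7 CPM with COL8A1 (log2 fold change 0.20, SE 0.07, edgeR unadjusted p = 0.0329, adjusted p = 0.783).

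**Figure D4:**
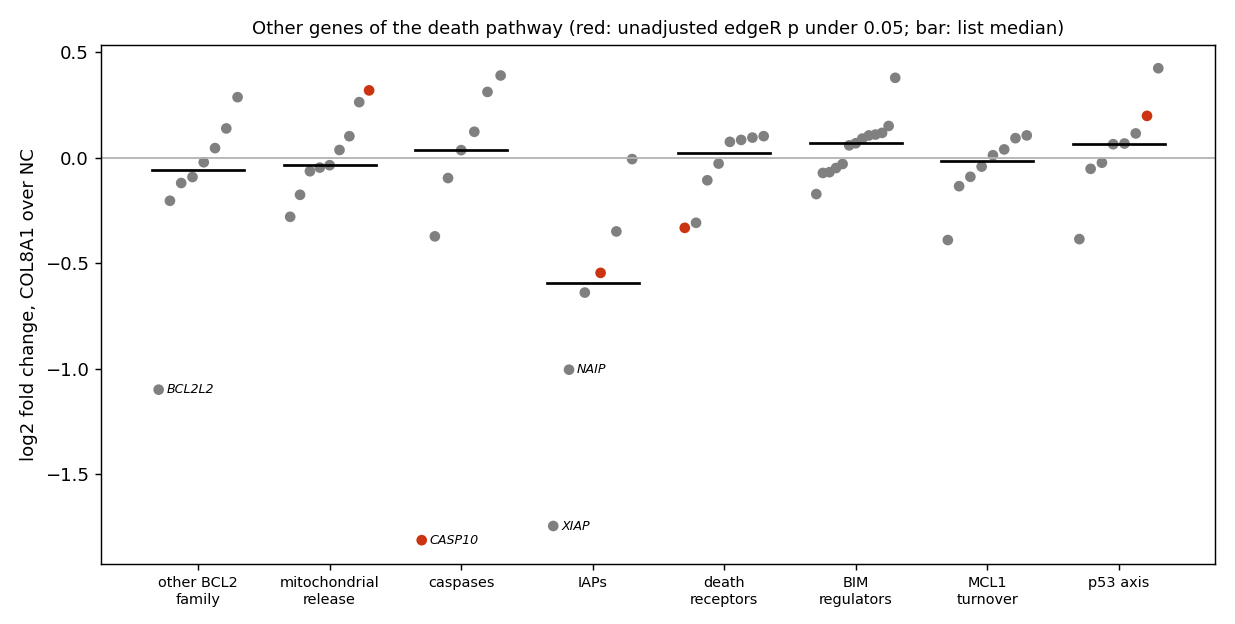
Log2 fold change between COL8A1 and NC cells of each tested gene in 8 lists of the death pathway, with red points for an unadjusted edgeR p under 0.05 and a black bar for the median of each list. The IAP points lie at or below 0 with a median of −0.59, and the other medians lie between −0.06 and 0.07.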

How the data were processed

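Total RNA of U251-MG cells was sequenced in 4 libraries, 2 per vector. Per the file headers, the authors deposited raw counts of reads per gene without normalization. The submitters' processing notes name Trim Galore 0.6.9 and HISAT2 2.2.1, list featureCounts as 0.3 and give hg38 as the build. Each tool's parameters, strand setting and annotation release were not given in the sources used here. A single line that names no gene was left out, and it held no reads.

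Groups and replicate numbers came from the sample titles. Counts were tested in R 4.3.3 with edgeR 4.0.16 (filterByExpr, TMM factors of 0.993 to 1.007, quasi-likelihood F-test with group as the only term, 2 residual and 2.64 prior degrees of freedom), with Benjamini-Hochberg adjustment over 17030 genes and a threshold of 0.05. The SE was taken as |log2 fold change| over √F, and 95% intervals use the t distribution with those degrees of freedom. CPM use TMM-scaled totals, and log2 CPM a prior count of 2. RPKM divide CPM by the GENCODE release 29 exon union in kilobases, which weights no transcript.

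The members and lists were chosen with earlier results of these data known. Named were the members, overlapping genes, list genes with an unadjusted p under 0.05 and a mean of at least 1 CPM (at most 4, or else the 2 smallest p), and the 5 genes nearest to BCL2L11. The rule for a library more than 2-fold apart was added after the values were seen. Alternatives were other scalings and filters, DESeq2 1.42.0, a block for the replicate number, each library left out in turn and overlapping genes summed. Intervals and limits for 0 counts (3 counts per library) cover counting error or library spread only.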

Additional observations from a re-analysis of the deposited data

How the results depend on the processing

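The number of genes past the threshold over all genes was 2 with edgeR. It was 17 without a low-count filter, 180 in DESeq2 and 0 to 3 with each library left out in turn, and the cause was not tested. With the replicate number as a block it was 1. Nothing in the labels says that the numbers pair the libraries, and the correlation of the deviations of NC replicate 1 and COL8A1 replicate 1 over 17030 genes was −0.036. No member passed the threshold under any of the 12 alternatives for each. Of these 120 member values, 116 kept their direction and 4 reversed, all with a library left out: BCL2L1 (0.047) and BBC3 (0.19) without NC replicate 1, and BAK1 (−0.031) and BBC3 (0.21) without COL8A1 replicate 2. Over the 4 omissions the log2 fold change ran from −0.68 to 0.047 in BCL2L1, from −0.33 to 0.21 in BBC3 and from −0.031 to 0.082 in BAK1. The block gave log2 fold changes of 1.96 for BCL2L11 and −0.92 for MCL1 (edgeR adjusted p = 0.936 for each). Other scalings moved the median of all genes by at most 0.0027. The difference in balance stayed above 0, between 0.36 and 1.46, under every alternative run, and was 0.72 with overlapping genes of either strand summed, an alternative added after seeing the data. The other scalings could hardly move it, since the scaling of a library nearly cancels between the pro-death and guardian means (0.91 with each). With 2 libraries per group the precision is limited by the spread between libraries, and for BBC3 also by its 39 to 65 counts.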
